A study of Macaca mulatta with 20 samples.

Results

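The comparison described here sets 4 corpora lutea of female rhesus macaques taken on luteal day 18, after 9 days of human chorionic gonadotropin (hCG), against 4 untreated corpora lutea taken on luteal day 10. The members are arrays, chosen by the group that the labels give: 8 of the 20 arrays in the series. In the hCG day 18 group, recombinant hCG was injected into muscle 2 times a day from luteal day 9 in 9 rising doses between 15 and 2880 IU, a regimen meant to imitate the hormone rise of early pregnancy. The untreated day 10 group received no hCG. The other 12 arrays hold 4 corpora lutea each from hCG days 10, 12 and 15, after 1, 3 and 6 days of the same regimen, and serve here to estimate the spread and to place day 18 in the course. The 2 groups differ in hormone, in luteal day and in dose, so that these cannot be told apart, and untreated tissue of luteal day 18 was not analysed here. Whether each corpus luteum of a group came from its own animal is not stated in the labels. The p-values therefore reflect just the variation among these arrays, part of which may be technical.

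After ovulation the emptied follicle turns into the corpus luteum, an endocrine gland whose progesterone keeps the uterine lining fit for a pregnancy. Without a pregnancy it regresses at the end of the luteal phase. In primates the early conceptus secretes chorionic gonadotropin, which acts on the luteinising hormone receptor of luteal cells, raises cyclic AMP and extends the life of the gland.

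Messenger RNA was read as biotin-labelled cRNA on Affymetrix rhesus arrays, 1 signal (an intensity) per probe set. Correlations of log2 signals between arrays were 0.97 to 0.979 within hCG day 18, 0.972 to 0.979 within untreated day 10 and 0.96 to 0.974 across these groups, so the ranges overlapped. The median signal per array averaged 42.1 on hCG day 18 and 44.1 in untreated tissue (exact permutation test, two-sided, p = 0.229, where 0.0286 is the smallest p that 4 against 4 allows). The 3′ minus 5′ log2 signal of the GAPDH control probe sets, a sign of RNA quality, averaged 0.652 on hCG day 18 and 0.853 in untreated tissue (exact permutation test, p = 0.0857, adjusted over 4 such measures p = 0.305). On the third principal component, which held 8.4% of the variance, 3 arrays lay apart from their groups: replicate 2 of untreated tissue, replicate 1 of hCG day 12 and replicate 2 of hCG day 15. Some of the counts without them are given below. Of the markers of luteal steroid cells 5 were measured. Their summed signal was 36884 to 46813 on hCG day 18 and 38929 to 50014 in untreated tissue. In the test given below 0 of the 5 rose and 1 fell, HSD3B2. Another, the adrenodoxin gene FDX1, passes electrons to the first enzyme of steroid synthesis. It averaged 13456 on hCG day 18 and 13323 in untreated tissue.

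Of 52707 probe sets, 2054 (3.9%) passed the limma test at a Benjamini-Hochberg adjusted p under 0.05, with 987 higher (1.87%) and 1067 lower (2.02%) on hCG day 18. Of the 2054, 1364 carry 1 gene symbol and 690 none or several. The probe sets with 1 symbol lay in 493 genes that rose and 583 that fell. The change reached 2-fold for 845 of the probe sets, 439 higher and 406 lower. The 4 arrays of hCG day 18 and the 4 untreated arrays did not overlap for 5884 probe sets (11.2%), 2525 of them higher (4.79%) and 3359 lower (6.37%). Without the 3 arrays that lay apart, 1555 probe sets passed. All changes below are differences in log2(signal + 16) from the fit on all 20 arrays, hCG day 18 minus untreated, with standard errors; this scale understates the change of dim probe sets. The tissue was assayed whole, so a lower signal cannot distinguish fewer cells of a type from less RNA per cell.

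**Figure D1:**
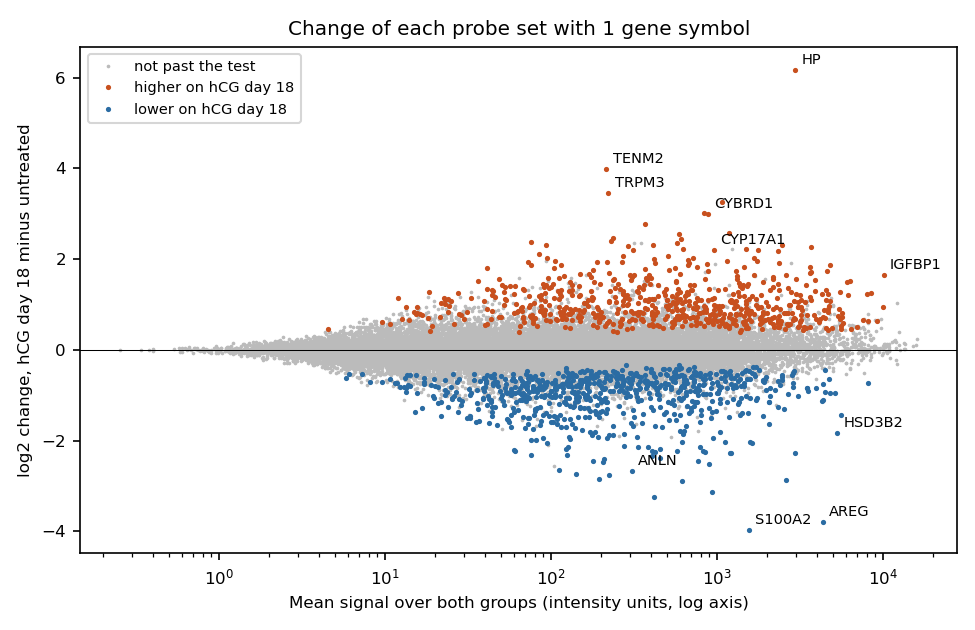
Each point is a probe set with 1 gene symbol. The horizontal axis gives its mean signal over both groups (log axis) and the vertical axis its log2 change on hCG day 18 against untreated day 10; coloured points passed the test. HP stands alone at the top with 6.17, and S100A2 and AREG lie lowest with -3.98 and -3.80.

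The genes with the largest changes were drawn from probe sets that passed and whose arrays did not overlap. For these genes the lack of overlap was therefore required by the choice and is no further result. The largest increase was that of HP, which encodes haptoglobin, the plasma protein that binds free haemoglobin. Its signal was 5934, 6695, 5409 and 5410 on the hCG day 18 arrays, against 83.3, 36.8, 54.8 and 102 on the untreated arrays. The lowest treated array stood far above the highest untreated one, and the 4 treated arrays lay close together. The log2 change was 6.17 ± 0.72 (adjusted p = 4.7e-05), or 72.0-fold on the scale used. Genes that handle iron and copper were among the other large increases. CYBRD1, a membrane ferric reductase that supplies reduced iron for uptake, had signals of 1234, 1552, 1646 and 1860 on hCG day 18, against 136, 204, 287 and 132 in untreated tissue. These arrays were separated by a wide gap, with a log2 change of 3.00 ± 0.30 (adjusted p = 1.1e-05). A brighter probe set of CYBRD1, which stands for the gene in the lists below, rose by 2.26 ± 0.19 (adjusted p = 5.1e-06). CP, which encodes the copper-carrying ferroxidase ceruloplasmin, gave 241, 87, 171 and 166 on hCG day 18, against 19.6, 36.5, 16 and 8.44 in untreated tissue. All treated arrays were above all untreated ones (2.31 ± 0.54, adjusted p = 0.018), but leaving out untreated replicate 4 or hCG day 18 replicate 1 ended the call (adjusted p up to 0.058).

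TRPM3 encodes a calcium-permeable cation channel gated by the steroid pregnenolone sulfate. Its signals were 334, 447, 582 and 325 on hCG day 18, against 15.8, 22.2, 35.2 and 20.4 in untreated tissue. The treated arrays lay roughly an order of magnitude above the untreated ones, with a log2 change of 3.46 ± 0.30 (adjusted p = 5.7e-06). The changes of its 2 other probe sets were smaller, at 0.39 and 1.30, and 1 of them passed. TENM2, a teneurin adhesion protein of synapses, gave 142, 325, 309 and 927 on hCG day 18, against 3.8, 6.38, 1.12 and 17.6 in untreated tissue. The untreated arrays were near or below the added constant of 16, and the treated ones differed widely among themselves (3.99 ± 0.81, adjusted p = 0.007). DPYSL3, a regulator of the cytoskeleton in growing nerve processes, reached 1611, 2573, 2125 and 1501 on hCG day 18, against 228, 124, 181 and 229 in untreated tissue. Treated and untreated arrays did not overlap (3.25 ± 0.38, adjusted p = 5.6e-05). The membrane protein genes MS4A8 and XKRX rose by 3.02 ± 0.34 and 2.77 ± 0.31 (adjusted p = 3.9e-05 and 3.1e-05). Each has 2 other probe sets, none of which passed (-0.21 to 0.12 for MS4A8 and -0.11 to 0.12 for XKRX), and averaging all probe sets of a gene gave 0.98 for MS4A8 and 0.93 for XKRX.

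Osteomodulin (OMD), a small matrix proteoglycan best known from bone, had signals of 377, 331, 288 and 652 on hCG day 18, against 40.5, 93.5, 39 and 69.5 in untreated tissue. Every treated array exceeded every untreated one (2.47 ± 0.40, adjusted p = 0.0012), and both of its other probe sets passed in the same direction. KANK4, of a family that links adhesions to the cytoskeleton, gave 320, 1321, 1309 and 1198 on hCG day 18, against 91.5, 173, 129 and 187 in untreated tissue. Replicate 1 of the treated group was well below the other 3, yet above all untreated arrays (2.56 ± 0.35, adjusted p = 0.00027). LVRN, which encodes the membrane aminopeptidase laeverin known from placental trophoblast, rose by 2.39 ± 0.50 (adjusted p = 0.0091). The increases of TRABD2A (2.58 ± 0.62, adjusted p = 0.022) and HOPX (2.32 ± 0.55, adjusted p = 0.021) depended on single arrays. TRABD2A kept its call in 4 of the 8 fits that left out 1 array and lost it without untreated replicate 1 or 4 or hCG day 18 replicate 2 or 4 (adjusted p up to 0.079). HOPX lost it without untreated replicate 2 or 3 or hCG day 18 replicate 4 (adjusted p up to 0.081).

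The probe set annotated to CYP11B1, the steroid 11-beta-hydroxylase of the adrenal cortex, had signals of 557, 991, 1756 and 770 on hCG day 18, against 243, 94.2, 67 and 377 in untreated tissue. The groups did not overlap, though the highest untreated array came near the lowest treated one (2.44 ± 0.52, adjusted p = 0.01). The near-identical gene CYP11B2 could share this signal, so its origin is uncertain, and without the 3 arrays that lay apart the call was lost.

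**Figure D2:**
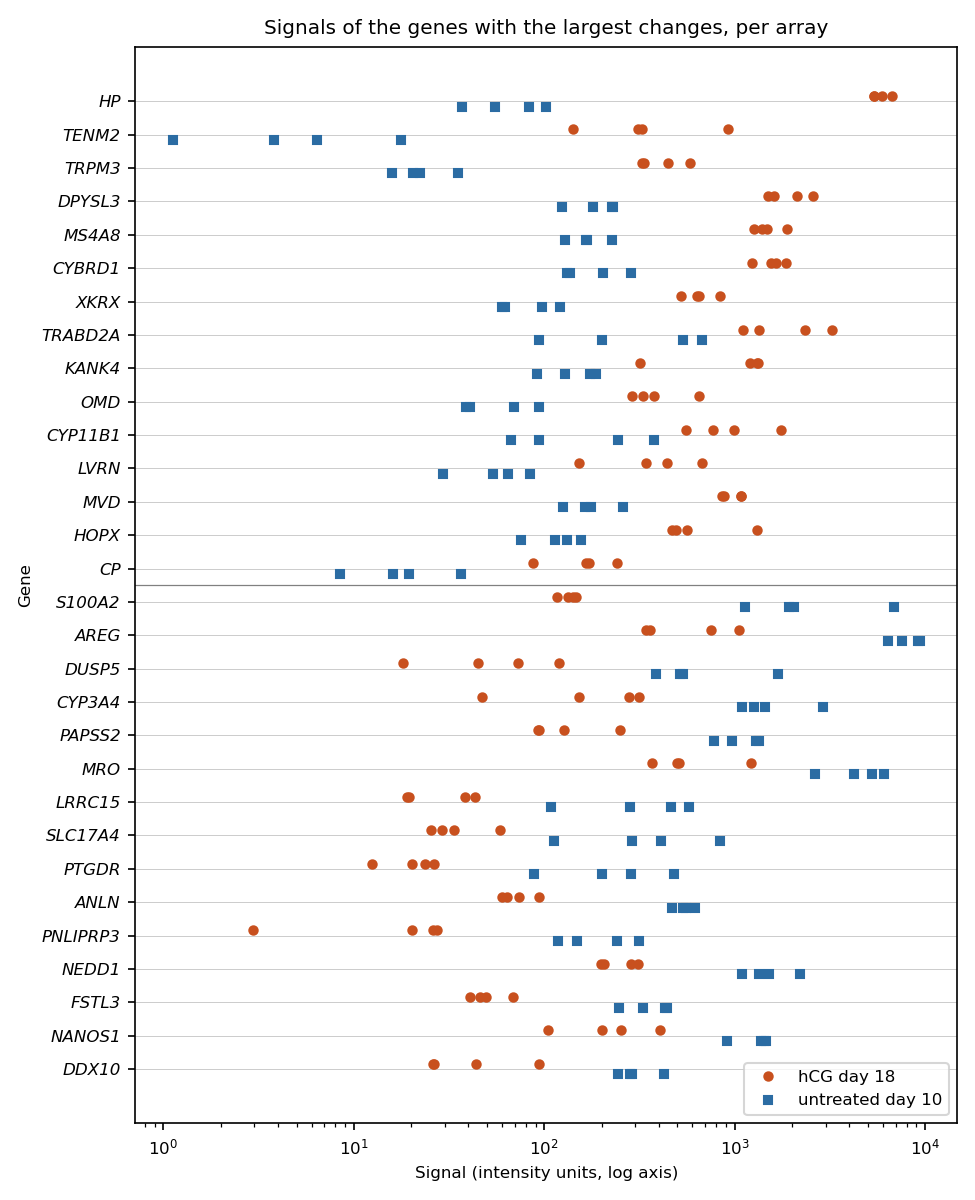
Signals per array (log axis) of the 15 genes with the largest increase (above the line) and the 15 with the largest decrease (below it), with hCG day 18 as circles above untreated day 10 as squares in each row. Arrays that did not overlap were a condition for a gene to enter this figure, so every row shows a gap between the groups.

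Among the decreases, S100A2 changed most. It encodes a calcium-binding protein of epithelial cells, and its signals were 146, 134, 141 and 116 on hCG day 18, against 1934, 6862, 2036 and 1139 in untreated tissue. The treated arrays were tightly grouped at a level far below the lowest untreated array (-3.98 ± 0.45, 15.8-fold lower, adjusted p = 4.2e-05). AREG, which encodes amphiregulin, a ligand of the epidermal growth factor receptor released in the ovary after the gonadotropin surge, gave 1053, 749, 357 and 343 on hCG day 18, against 9134, 6367, 7603 and 9356 in untreated tissue. All treated arrays were far dimmer than any untreated one (-3.80 ± 0.45, 14.0-fold lower, adjusted p = 6.1e-05). MRO, the gene of the nucleolar protein maestro, gave 1212, 498, 366 and 510 on hCG day 18, against 4217, 6081, 2652 and 5233 in untreated tissue. No treated array reached the lowest untreated one (-2.87 ± 0.41, adjusted p = 0.00034), while neither of its other 2 probe sets pointed the same way.

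PAPSS2, the enzyme that makes the sulfate donor used to sulfate steroids and proteoglycans, gave 92.4, 127, 250 and 93.5 on hCG day 18, against 971, 1297, 782 and 1348 in untreated tissue. The groups were far apart (-2.90 ± 0.28, adjusted p = 7.4e-06), while none of its other 3 probe sets passed. The probe set named for CYP3A4, an enzyme that hydroxylates steroids and drugs, gave 47.2, 314, 279 and 152 on hCG day 18, against 1094, 1438, 1266 and 2896 in untreated tissue. All treated arrays were lower (-3.13 ± 0.49, adjusted p = 0.00083), but close relatives of this gene may share the signal, and the mean over all probe sets of the gene did not pass. PTGDR, a receptor of prostaglandin D2, gave 26.3, 20.1, 23.6 and 12.4 on hCG day 18, against 285, 482, 201 and 88 in untreated tissue. The treated signals lay near the lower end of the scale (-2.74 ± 0.35, adjusted p = 0.00013).

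FSTL3, which encodes a secreted protein that binds and blocks activin, gave 40.6, 68.9, 46.2 and 49.4 on hCG day 18, against 431, 443, 329 and 247 in untreated tissue. The groups did not overlap (-2.47 ± 0.29, adjusted p = 4.7e-05). ANLN, the gene of anillin, which shapes the contractile ring of dividing cells, gave 73.6, 63.5, 94.3 and 59.9 on hCG day 18, against 552, 536, 622 and 468 in untreated tissue. Both groups were tight and widely separated (-2.67 ± 0.24, adjusted p = 6.6e-06). The other 3 probe sets of ANLN were mixed: 2 passed as lower, and 1 pointed the opposite way (0.28) without passing. NEDD1, which anchors the microtubule-nucleating complex at spindle and centrosome, fell by 2.52 ± 0.29 (adjusted p = 4.7e-05), and its other 3 probe sets passed in the same direction. LRRC15, a membrane protein of stromal cells, fell by 2.84 ± 0.40 (adjusted p = 0.00035), and NANOS1, an RNA-binding translational repressor, by 2.46 ± 0.37 (adjusted p = 0.00056). PNLIPRP3, a relative of pancreatic lipase, fell by 2.64 ± 0.37 (adjusted p = 0.00034). DDX10, an RNA helicase gene, fell by 2.45 ± 0.36 (adjusted p = 0.00048) in the probe set with the largest change. Of its other 3 probe sets 2 passed in the same direction and 1 in the opposite direction. The fall of SLC17A4, a phosphate and anion transporter gene (-2.75 ± 0.62, adjusted p = 0.014), was lost without untreated replicate 2 (adjusted p = 0.058).

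To describe gene groups, 40 lists were used that cover pathways and markers of cell types, each gene being read from 1 probe set. On that basis 861 of 14132 genes (6.09%) passed, 393 higher (2.78%) and 468 lower (3.31%), and the median change was -0.03. Shares of list members are read against these values. Among the genes described here, CYP17A1, LRRC15, HK1, SQSTM1, MCL1, RECK and TCF7 also have other probe sets, none of which passed. The same held for FDXR, MRAP, PGRMC2, NR4A1, IGF2R, PENK, SLC2A1, ALDOC, TFRC, PMAIP1, FN1, MMP1, SFRP1, ACTG2, JCHAIN, TRABD2A and HOPX. The other probe set pointed the opposite way for TRABD2A (-0.02), HOPX (-0.13), PENK (-0.03), MCL1 (-0.03), RECK (-0.09) and JCHAIN (-0.07). So did 1 of the 2 others of TCF7 (0.20). Averaging a gene's probe sets ended the calls of MRAP, PGRMC2, PENK, SLC2A1, TFRC and SFRP1. Other probe sets passed in the same direction for VCAN (3 of 4), CP (2 of 3), NR5A2 and MMP16 (2 of 2 each), and BTC and BST2 (1 of 1 each). They were read from the same arrays, so they do not test how far these calls depend on single arrays.

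**Figure D3:**
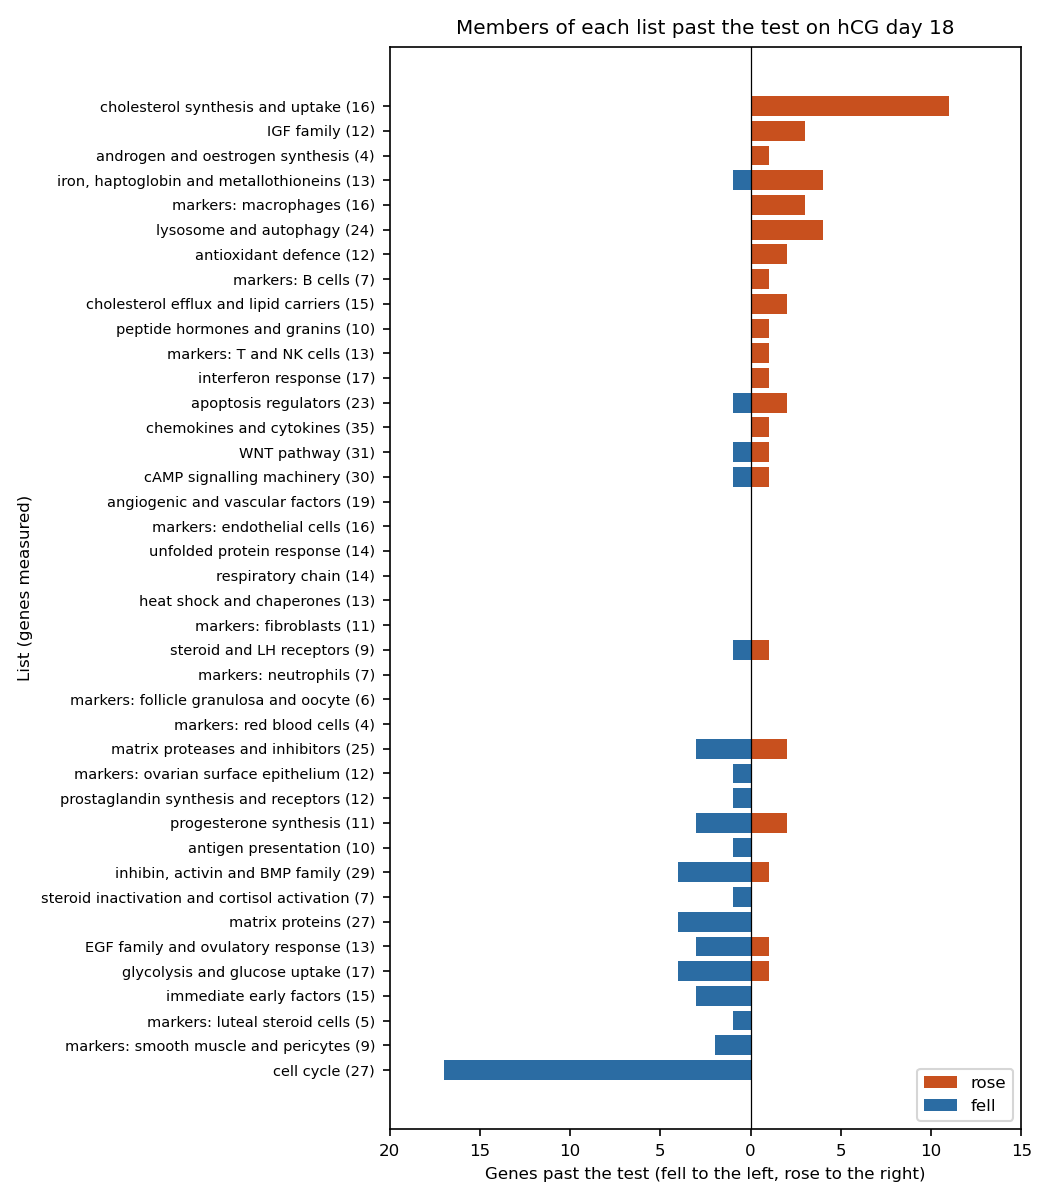
For each list, with its number of measured genes in parentheses, the bar to the right counts members that rose and the bar to the left members that fell on hCG day 18 against untreated day 10. The longest bars are 11 of 16 genes of cholesterol synthesis and uptake that rose and 17 of 27 cell cycle genes that fell.

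Cholesterol is the raw material of progesterone, and luteal cells take it from lipoproteins or make it from acetate through the mevalonate pathway. Of 16 measured genes of cholesterol synthesis and uptake, 11 rose and 0 fell, with a median change of 1.35. None of the 16 was lower at an unadjusted p under 0.05. The changed genes span the pathway from mevalonate diphosphate to its last reduction. MVD, which decarboxylates mevalonate diphosphate, gave 1079, 876, 860 and 1082 on hCG day 18, against 177, 164, 259 and 126 in untreated tissue. All treated arrays were several-fold brighter (2.36 ± 0.35, adjusted p = 0.00053). FDFT1, squalene synthase, the first step committed to sterols, gave 4653, 4965, 5508 and 7422 on hCG day 18, against 1583, 1458, 2330 and 1504 in untreated tissue. The groups were clearly apart (1.71 ± 0.20, adjusted p = 4.5e-05). EBP, the isomerase that moves a double bond in the sterol ring, gave 3706, 3163, 3786 and 5725 on hCG day 18, against 693, 782, 1172 and 627 in untreated tissue. Its treated arrays likewise all exceeded the untreated ones (2.31 ± 0.28, adjusted p = 7.7e-05).

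DHCR7, the reductase that ends the pathway, rose by 1.98 ± 0.30 (adjusted p = 0.00066). CYP51A1, lanosterol demethylase, rose by 1.61 ± 0.24 (adjusted p = 0.00053). IDI1, which isomerises the isoprenoid building block, rose by 1.65 ± 0.26 (adjusted p = 0.00083). INSIG1, a sterol-responsive protein that retains the transcription factor SREBP in the endoplasmic reticulum, rose by 1.63 ± 0.25 (adjusted p = 0.00081). FDPS, which makes farnesyl diphosphate between IDI1 and FDFT1, did not pass (-0.20 ± 0.17, adjusted p = 0.66). SREBF2, the gene of the master transcription factor of the pathway, did not pass either (0.37 ± 0.19, adjusted p = 0.36). Without each single array in turn, 8 to 10 of the list rose, and 8 genes passed in all of those fits. Without the 3 arrays that lay apart, 9 rose.

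Genes of progesterone synthesis changed in both directions. Of 11 measured genes 2 rose and 3 fell, with a median of 0.02. HSD3B2, the dehydrogenase that converts pregnenolone to progesterone, gave 2372, 2824, 1742 and 2421 on hCG day 18, against 6740, 8048, 8993 and 9501 in untreated tissue. The brightest treated array stood well below the dimmest untreated one (-1.83 ± 0.21, 3.56-fold lower, adjusted p = 4.4e-05). POR, the reductase that feeds electrons to microsomal cytochrome P450 enzymes, rose in the probe set used (1.18 ± 0.19, adjusted p = 0.00098), but its other 3 probe sets did not point the same way and their mean did not pass. FDX1 did not pass (0.02 ± 0.13, adjusted p = 0.97). NR5A2, a nuclear receptor that drives steroid synthesis genes, fell by 0.72 ± 0.17 (adjusted p = 0.022) and kept its call in 5 of the 8 fits that left out 1 array, losing it without untreated replicate 1 or 4 or hCG day 18 replicate 3 (adjusted p up to 0.066). FDXR, which supplies electrons to FDX1, fell by 0.75 ± 0.19 (adjusted p = 0.026) with overlapping arrays and kept its call in 3 of those 8 fits. MRAP, an accessory protein of the ACTH receptor, rose by 0.58 ± 0.15 (adjusted p = 0.04) and kept its call in 2 of those 8 fits.

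CYP17A1, whose enzyme turns progestins into androgen precursors, gave 993, 1820, 2302 and 1282 on hCG day 18, against 358, 406, 274 and 255 in untreated tissue. It rose by 2.20 ± 0.34 (adjusted p = 0.00067) with no overlap, the 1 gene of 4 in androgen and oestrogen synthesis that passed. CYP19A1, the aromatase gene, gave 9424, 11921, 7749 and 12202 on hCG day 18, against 6827, 6733, 6927 and 3806 in untreated tissue. The arrays did not overlap, but the difference did not pass (0.78 ± 0.26, adjusted p = 0.11). HSD11B1, which regenerates active cortisol, gave 2201, 2882, 2579 and 3113 on hCG day 18, against 5643, 5815, 5588 and 6452 in untreated tissue. Both groups were narrow and well separated (-1.13 ± 0.13, adjusted p = 3.7e-05), and it was the 1 of 7 genes of steroid inactivation and cortisol activation to pass.

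PGR, the nuclear progesterone receptor, gave 63.6, 57.5, 50.8 and 65.6 on hCG day 18, against 120, 116, 126 and 123 in untreated tissue. Its untreated arrays were nearly identical and all above the treated ones (-0.87 ± 0.19, adjusted p = 0.012). Of 9 genes of steroid and luteinising hormone receptors 1 other passed: PGRMC2, a membrane protein related to progesterone binding, was higher by 0.46 ± 0.13 (adjusted p = 0.046), a call kept in 2 of the 8 fits that left out 1 array. Of 30 genes of the cyclic AMP machinery 1 rose and 1 fell, so 6.67% passed, near the 6.09% of all genes. These 2 genes encode phosphodiesterases, the enzymes that break cyclic nucleotides down. PDE7B rose by 1.23 ± 0.25 (adjusted p = 0.0067) and PDE8B fell by 1.87 ± 0.35 (adjusted p = 0.004).

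Genes of cell division fell together. Of 27 measured cell cycle genes 17 fell and 0 rose, with a median of -0.85, against -0.03 over all 14132 genes. CCNB1, the cyclin that drives entry into mitosis, gave 91, 108, 147 and 92.7 on hCG day 18, against 454, 406, 586 and 329 in untreated tissue. The brightest treated array was below the dimmest untreated one by a wide margin (-1.86 ± 0.20, adjusted p = 3.1e-05). KIF23, a kinesin of the midbody, gave 44.6, 38.7, 55.5 and 34.9 on hCG day 18, against 224, 223, 269 and 141 in untreated tissue. The groups of KIF23 were equally free of overlap (-1.93 ± 0.21, adjusted p = 3.1e-05). CENPF, a kinetochore protein, gave 188, 111, 145 and 123 on hCG day 18, against 527, 479, 573 and 374 in untreated tissue (-1.68 ± 0.19, adjusted p = 3.6e-05). Its arrays did not overlap either.

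TOP2A, the DNA topoisomerase of replicating chromosomes, fell by 2.22 ± 0.42 (adjusted p = 0.0045). MKI67, which encodes the proliferation marker Ki-67, fell by 1.70 ± 0.23 (adjusted p = 0.00019), with signals of 34.9 to 56.3 on hCG day 18 and 142 to 253 in untreated tissue. CCNB2 fell by 1.77 ± 0.23 (adjusted p = 0.00017) and CCNA2, the cyclin of replication, by 1.33 ± 0.16 (adjusted p = 7.8e-05). TYMS, which makes thymidylate for DNA, fell by 1.62 ± 0.24 (adjusted p = 0.00054). The replication clamp PCNA fell by 0.51 ± 0.12 (adjusted p = 0.023), and the cyclin gene CCND3 did not pass (-0.01 ± 0.18). The inhibitor gene CDKN1A, which had 1 of the 2 changes above 0 in the list, did not pass (0.58 ± 0.23, adjusted p = 0.19). Between 13 and 17 of the list fell without each single array in turn, 13 genes passed in all of those fits, and 16 fell without the 3 arrays that lay apart.

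**Figure D4:**
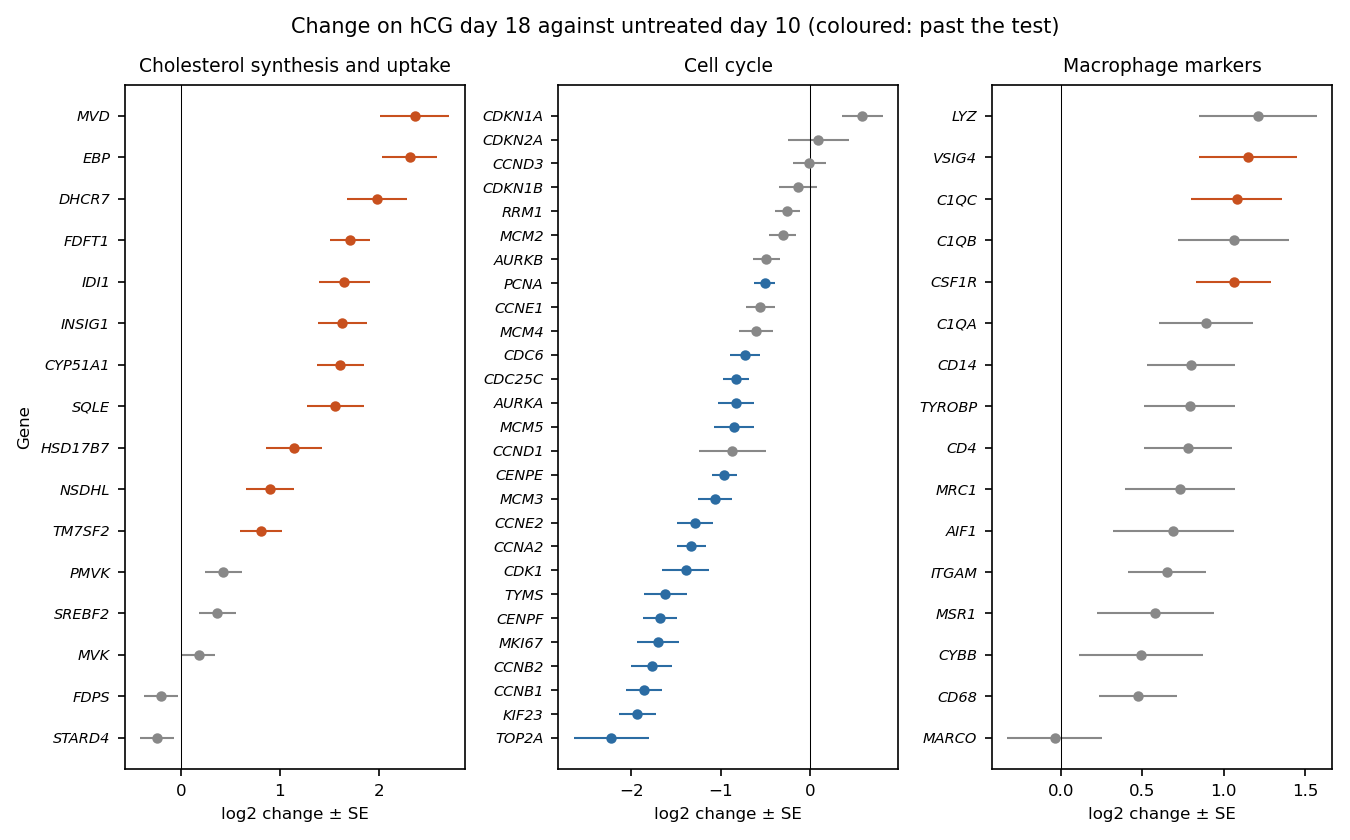
Log2 change on hCG day 18 against untreated day 10, with its standard error, for each measured member of 3 lists; coloured points passed the test. Cholesterol genes lie mostly to the right of 0, cell cycle genes mostly to the left, and 15 of 16 macrophage markers to the right although only 3 passed.

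Signals of the epidermal growth factor family were dominated by the fall of AREG. Of 13 genes in this family and the ovulatory response 1 rose and 3 fell, with a median of -0.57. EGF itself gave 48.8, 179, 98 and 184 on hCG day 18, against 22.1, 19.8, 21.4 and 10.3 in untreated tissue. The treated arrays were all higher, though dim (1.94 ± 0.33, adjusted p = 0.0017). TNFAIP6, a hyaluronan-binding protein made by the follicle at ovulation, fell by 1.37 ± 0.25 (adjusted p = 0.0037). BTC, betacellulin, a further ligand of the same receptor, fell by 0.95 ± 0.24 (adjusted p = 0.027) and kept its call in 3 of the 8 fits that left out 1 array. Of 15 immediate early factors 0 rose and 3 fell, and none was higher at an unadjusted p under 0.05. IER2, a serum-response gene, fell by 0.64 ± 0.14 (adjusted p = 0.01), a call that ended when only the 8 arrays of both groups were fitted. The phosphatase gene DUSP5 gave 72.8, 45, 18.2 and 119 on hCG day 18, against 515, 1679, 535 and 386 in untreated tissue. The groups did not overlap (-3.24 ± 0.81, adjusted p = 0.028), but the call was kept in 2 of the 8 fits that left out 1 array (adjusted p up to 0.098). The nuclear receptor gene NR4A1 (-1.02 ± 0.26, adjusted p = 0.03) kept it in 3 of them. PTGDR was the 1 gene of 12 for prostaglandin synthesis and receptors that passed.

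In the inhibin, activin and bone morphogenetic protein family 1 of 29 genes rose and 4 fell. TGFBR3, betaglycan, the co-receptor through which inhibin blocks activin, gave 5146, 4805, 4573 and 5495 on hCG day 18, against 2165, 1773, 2780 and 2243 in untreated tissue. All treated arrays were higher (1.17 ± 0.25, adjusted p = 0.01). ID4, an inhibitor of basic helix-loop-helix factors, fell by 1.11 ± 0.19 (adjusted p = 0.0016) and its other 3 probe sets passed in the same direction. SMAD7 (-0.73 ± 0.18, adjusted p = 0.024), an inhibitor of receptor signalling, and BMP4 (-0.79 ± 0.21, adjusted p = 0.04), a ligand, kept their calls in 3 and 1 of the 8 fits that left out 1 array. The inhibin alpha subunit gene INHA did not pass (0.47 ± 0.17, adjusted p = 0.14).

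Of 12 genes of the insulin-like growth factor family 3 rose and 0 fell. IGFBP1, a secreted protein that binds these growth factors, gave 15235, 14874, 13887 and 16632 on hCG day 18, against 7603, 3295, 4475 and 4937 in untreated tissue. Every treated array exceeded every untreated one (1.64 ± 0.26, adjusted p = 0.00081). IGFBP4 rose by 0.76 ± 0.16 (adjusted p = 0.011), a call that also ended when only the 8 arrays were fitted. IGF2R, the clearance receptor, rose by 0.50 ± 0.14 (adjusted p = 0.049) and kept its call in 1 of the 8 fits that left out 1 array. Of 10 peptide hormone genes, PENK, which encodes proenkephalin, rose by 0.81 ± 0.20 (adjusted p = 0.03), with the call kept in 1 of those 8 fits. RLN2, the relaxin gene, averaged 15600 on hCG day 18 and 8789 in untreated tissue and did not pass (1.04 ± 0.42, adjusted p = 0.21).

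Genes of lysosomes, lipid handling and antioxidant defence rose in part. Of 24 lysosome and autophagy genes 4 rose and 0 fell, and all 4 passed without each single array. SQSTM1, a cargo receptor of autophagy, gave 5463, 7135, 5991 and 7392 on hCG day 18, against 2997, 2591, 2565 and 2279 in untreated tissue. The groups were well apart (1.31 ± 0.15, adjusted p = 4.5e-05). The lysosomal protease genes CTSL and CTSF rose by 0.95 ± 0.17 and 0.73 ± 0.15 (adjusted p = 0.0022 and 0.0061), and NPC2, which moves cholesterol out of lysosomes, by 0.74 ± 0.16 (adjusted p = 0.011). MGST1, a membrane glutathione transferase, gave 7063, 9639, 8566 and 10751 on hCG day 18, against 2698, 3608, 3581 and 2864 in untreated tissue. Treated signals were all higher (1.49 ± 0.18, adjusted p = 6.1e-05), and with SOD1, the cytosolic superoxide dismutase (0.89 ± 0.16, adjusted p = 0.0027), it made up the 2 of 12 antioxidant genes that passed.

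ANGPTL4, a secreted inhibitor of lipoprotein lipase, gave 3304, 5355, 4213 and 5109 on hCG day 18, against 1572, 1184, 1705 and 1483 in untreated tissue. It rose by 1.57 ± 0.23 (adjusted p = 0.00048) without overlap. In the same list of 15 efflux and lipid carrier genes, PLTP, the phospholipid transfer protein, rose by 0.58 ± 0.15 (adjusted p = 0.035), with the call kept in 3 of the 8 fits that left out 1 array. Of 13 genes for iron, haptoglobin and metallothioneins, FTL, the ferritin light chain, rose by 1.07 ± 0.17 (adjusted p = 0.00085) beside HP, CYBRD1 and CP. TFRC, the transferrin receptor, was the 1 member that fell (-0.77 ± 0.21, adjusted p = 0.047), and it passed in none of the 8 fits that left out 1 array.

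Of 17 genes of glycolysis and glucose uptake 1 rose and 4 fell. HK1, a hexokinase that traps glucose in the cell, gave 757, 1052, 692 and 729 on hCG day 18, against 2025, 1849, 1289 and 2342 in untreated tissue. No treated array reached the untreated range (-1.19 ± 0.21, adjusted p = 0.0022). The second hexokinase HK2 fell by 0.91 ± 0.21 (adjusted p = 0.016), PFKFB3, which makes an activator of glycolysis, by 0.93 ± 0.22 (adjusted p = 0.02), and the glucose transporter SLC2A1 by 1.00 ± 0.25 (adjusted p = 0.026). The aldolase gene ALDOC rose by 1.11 ± 0.28 (adjusted p = 0.029). HK1 kept its call in every fit that left out 1 array, HK2 in 4 of 8, PFKFB3 in 5, SLC2A1 in 3 and ALDOC in 2. None of 14 respiratory chain genes passed the limma test, where 1 was higher and 4 lower at an unadjusted p under 0.05. The smallest p-values there were those of SDHB (0.47 ± 0.17, adjusted p = 0.15), a subunit of complex II, and UQCRC1 (-0.38 ± 0.15, adjusted p = 0.19), of complex III. The same held for 13 heat shock genes, with 0 higher and 2 lower at that level, and for 14 genes of the unfolded protein response, with 1 higher and 0 lower.

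Among matrix genes 4 of 27 fell and 0 rose, with 3 higher and 8 lower at an unadjusted p under 0.05. LAMB1, a laminin chain of basement membranes, gave 742, 738, 577 and 613 on hCG day 18, against 1363, 1541, 1474 and 927 in untreated tissue. The groups did not overlap (-0.96 ± 0.18, adjusted p = 0.0037). COL5A2, a fibrillar collagen chain, fell by 0.85 ± 0.17 (adjusted p = 0.0066), and its other 3 probe sets passed in the same direction. Fibronectin (FN1, -0.91 ± 0.22, adjusted p = 0.025) and versican (VCAN, -1.46 ± 0.37, adjusted p = 0.031) each kept their calls in 3 of the 8 fits that left out 1 array, and the arrays of VCAN overlapped. Of 25 matrix proteases and inhibitors 2 rose and 3 fell. ADAM12, a membrane metalloprotease, gave 887, 932, 769 and 746 on hCG day 18, against 1815, 1762, 2005 and 1946 in untreated tissue. Its groups were narrow and apart (-1.16 ± 0.12, adjusted p = 1.1e-05). MMP16, a membrane-bound metalloproteinase, rose by 1.53 ± 0.35 (adjusted p = 0.017), losing the call without hCG day 18 replicate 3 or 4 (adjusted p up to 0.065). RECK, a membrane inhibitor of such proteases, rose by 1.11 ± 0.25 (adjusted p = 0.015), losing it without untreated replicate 3 or hCG day 18 replicate 3 or 4 (adjusted p up to 0.054). MMP10 and MMP1, secreted proteases, passed as lower, but with day 18 signals of 5.77, 6.21, 4.61 and 9.76 for MMP10 and 7.17, 5.86, 9.19 and 2.65 for MMP1 the size of the difference is not resolved. The MMP10 call ended with an added constant of 1, and that of MMP1 without hCG day 18 replicate 4 (adjusted p = 0.066).

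In 23 regulators of apoptosis 2 rose and 1 fell. BCL2L11, the death-promoting protein BIM, gave 836, 485, 527 and 483 on hCG day 18, against 310, 260, 213 and 228 in untreated tissue. All treated arrays were higher (1.13 ± 0.16, adjusted p = 0.00039), although none of the other 5 probe sets of the gene passed, nor did the average of all its probe sets. MCL1, a protein that protects from death, rose by 0.87 ± 0.18 (adjusted p = 0.0092). PMAIP1, which opposes MCL1, fell by 1.04 ± 0.28 (adjusted p = 0.04) and kept its call in 2 of the 8 fits that left out 1 array. In the WNT pathway 1 of 31 genes rose and 1 fell, so 6.45% passed, near the 6.09% of all genes. SFRP1, a secreted inhibitor, rose by 1.65 ± 0.39 (adjusted p = 0.018), a call lost without untreated replicate 1 or 2 or hCG day 18 replicate 2 or 4 (adjusted p up to 0.056), and TCF7, a transcription factor of the pathway, fell by 1.47 ± 0.21 (adjusted p = 0.00039).

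Markers of macrophages, which enter the primate corpus luteum as it ages, were higher on the whole. Of 16 markers 15 had a change above 0, with a median of 0.79, but 3 passed (18.8%). CSF1R, the receptor for the macrophage growth factor, gave 882, 589, 830 and 624 on hCG day 18, against 483, 468, 268 and 212 in untreated tissue. It was higher in every treated array (1.06 ± 0.23, adjusted p = 0.012). The complement gene C1QC (1.08 ± 0.28, adjusted p = 0.035) and the complement receptor gene VSIG4 (1.15 ± 0.30, adjusted p = 0.038) passed with arrays that overlapped. The summed signal of the 16 markers was 13173 to 27637 on hCG day 18 and 5877 to 14763 in untreated tissue, so the groups overlapped. MARCO was under 16 on average in both groups. Without untreated replicate 3 or 4 or hCG day 18 replicate 1 or 3 the count of passing markers was 1, and without untreated replicate 1 or 2 it was 4. With just these 8 arrays fitted it was 0, the CSF1R call included, and with a replicate block it was 5. The part of these cells in the changes of other genes was not tested.

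Of other cell type markers few passed. None of 16 endothelial markers passed (median -0.15), where 0 were higher and 1 lower at an unadjusted p under 0.05, and none of 19 angiogenic and vascular factors, where 1 was higher and 2 lower. PROK1, a vascular growth factor of endocrine glands, gave 120, 671, 1255 and 421 on hCG day 18, against 60.9, 103, 47 and 115 in untreated tissue. Its treated arrays were scattered over a wide range above the untreated ones, and it did not pass (2.36 ± 0.71, adjusted p = 0.076). None of 11 fibroblast markers passed, where 0 were higher and 1 lower at an unadjusted p under 0.05. Of 9 smooth muscle and pericyte markers KCNJ8, a potassium channel of pericytes, fell by 1.06 ± 0.14 (adjusted p = 0.00019), and the muscle actin ACTG2 by 0.75 ± 0.18 (adjusted p = 0.026), the ACTG2 call being kept in 2 of the 8 fits that left out 1 array. Of 13 T and natural killer cell markers the granzyme gene GZMA rose by 0.91 ± 0.19 (adjusted p = 0.01), and with only the 8 arrays fitted this call ended and the list had none. Of 7 B cell markers the antibody chain JCHAIN rose by 1.17 ± 0.30 (adjusted p = 0.032), a call kept in 3 of those 8 fits. The defining B cell genes MS4A1 and CD79A were under 16 on average in both groups.

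Ovarian surface epithelium was represented by 12 markers, of which KRT7, CDH1, EPCAM, MSLN and LRRN4 were under 16 on average in both groups. CLDN3, a tight junction protein, gave 271, 359, 310 and 296 on hCG day 18, against 828, 622, 1304 and 829 in untreated tissue. It was the 1 marker of this list that passed (-1.44 ± 0.28, adjusted p = 0.0056). Of 6 markers of follicular granulosa cells and oocytes none passed in limma, with 1 higher and 0 lower at an unadjusted p under 0.05. The 7 neutrophil and 4 red blood cell markers likewise gave 0 calls in limma, with 1 higher in each list at that level. Of 17 interferon response genes 1 passed (5.88%, near the 6.09% of all genes). It was BST2, which tethers virus particles to the cell and rose by 0.50 ± 0.13 (adjusted p = 0.033). Of 10 antigen presentation genes 1 fell, the peptide transporter TAP1 (-1.39 ± 0.37, adjusted p = 0.041). These calls were kept in 3 of the 8 fits that left out 1 array for BST2 and in 2 for TAP1. Of 35 chemokine and cytokine genes 1 rose (2.86% passed, below the 6.09% of all genes), the receptor CSF1R already described.

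To place these differences among shorter treatments, hCG day 18 was compared with the other hCG days in the same fit. These days differ in days of hCG, in luteal day and in dose together, so that these cannot be told apart. Against hCG day 10, 2744 probe sets passed (5.21%), with 1187 higher (2.25%) and 1557 lower (2.95%) on day 18. Against hCG day 12, 753 passed (1.43%), with 341 higher (0.647%) and 412 lower (0.782%). Against hCG day 15 the limma test called 0 probe sets, while 3688 were under an unadjusted p of 0.05; a missed threshold does not show that both days are alike. The split into higher and lower moved with the scaling: with arrays centred on their medians, 728 were higher and 1674 lower than on hCG day 10, and 180 higher and 514 lower than on hCG day 12. The count against hCG day 12 also moved with single arrays: it was 434, 363 or 499 without hCG day 12 replicate 2, 3 or 4, and 335, 388 or 442 without hCG day 18 replicate 1, 3 or 4.

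HP averaged 69.2 ± 29.0 in untreated tissue, 224 ± 243 on hCG day 10, 366 ± 354 on hCG day 12, 843 ± 583 on hCG day 15 and 5862 ± 608 on hCG day 18 (SD, n = 4 each). It was higher on day 18 than on hCG day 10 by 5.09 ± 0.72 (limma, adjusted p = 0.00022) and than on hCG day 12 by 4.52 ± 0.72 (adjusted p = 0.0034). The difference from hCG day 15 was 3.15 ± 0.72 and did not pass (adjusted p = 0.32). HSD3B2 averaged 8320 ± 1213 in untreated tissue, 10323 ± 1530 on hCG day 10, 6507 ± 1402 on hCG day 12, 4347 ± 1321 on hCG day 15 and 2340 ± 447 on hCG day 18 (SD, n = 4 each). The log2 difference of day 18 from hCG day 10 was -2.14 ± 0.21 (limma, adjusted p = 6.8e-06). HSD11B1 followed the same order, and its log2 difference of day 18 from hCG day 10 was -1.46 ± 0.13 (limma, adjusted p = 2.3e-06). AREG averaged 8115 ± 1402 in untreated tissue, 7158 ± 1124 on hCG day 10, 2957 ± 1243 on hCG day 12, 1166 ± 649 on hCG day 15 and 626 ± 341 on hCG day 18 (SD, n = 4 each). It was lower on day 18 than on hCG day 10 (-3.63 ± 0.45, adjusted p = 6.6e-05), and the difference from hCG day 15 did not pass (-0.77 ± 0.45, adjusted p = 0.80). S100A2 was already lower than in untreated tissue on hCG day 10 (-2.45 ± 0.45, limma, adjusted p = 0.011). Its day 18 level was not called different from hCG day 10, 12 or 15 (limma, adjusted p = 0.057, 0.092 and 0.8). BTC differed from untreated tissue by -1.24 on hCG day 10, -1.46 on hCG day 12 and -0.95 on hCG day 18.

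**Figure D5:**
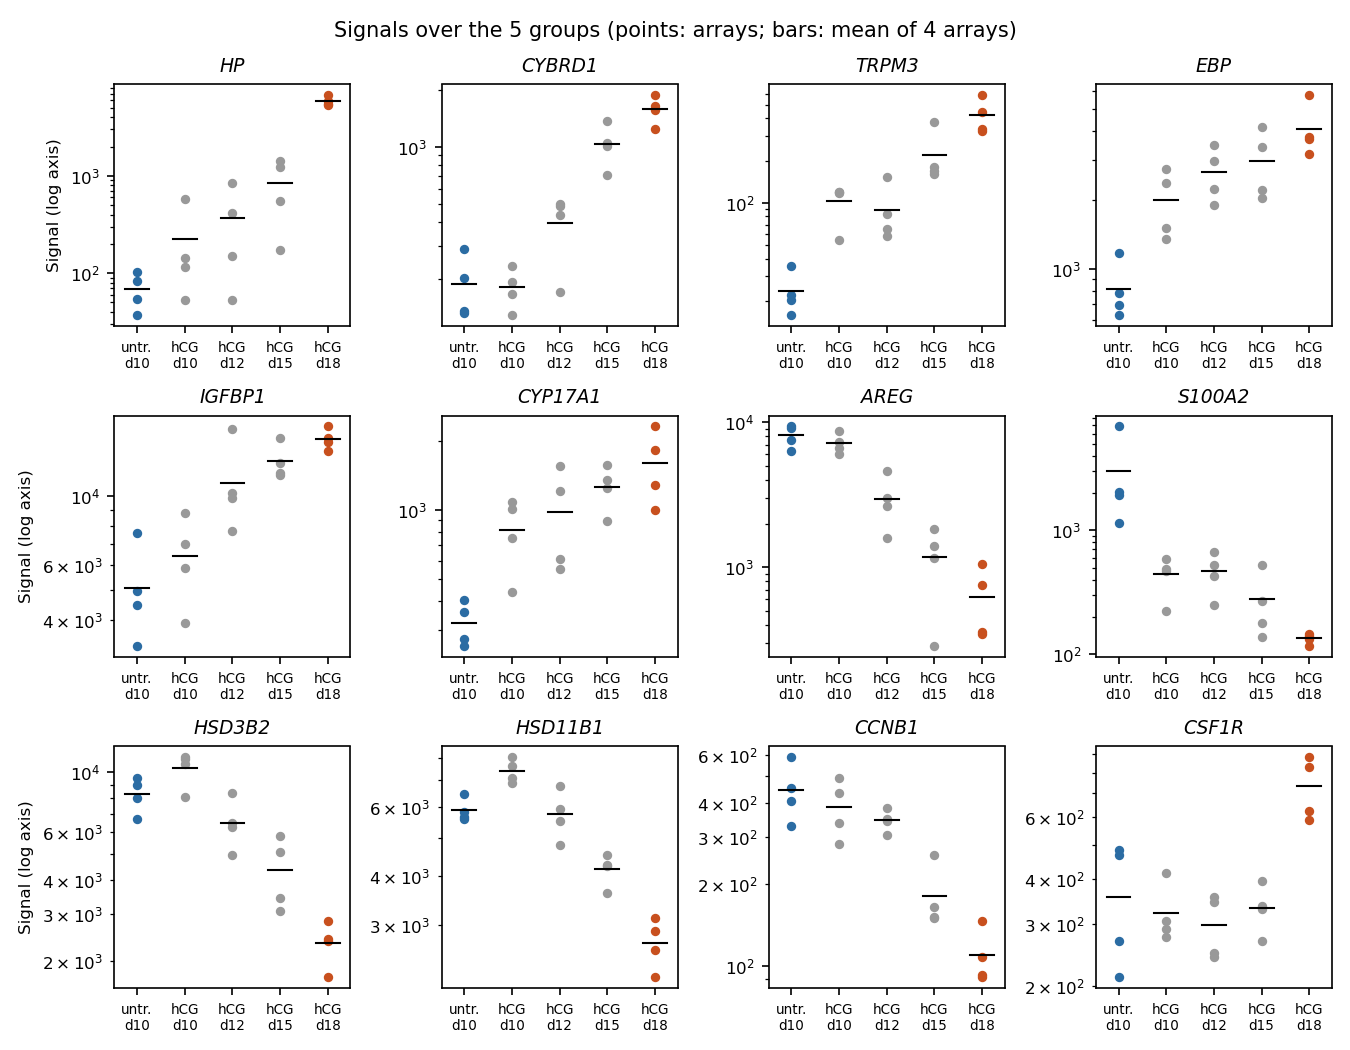
Signals (log axis) of 12 genes in untreated tissue and on hCG days 10, 12, 15 and 18; points are arrays and bars the mean of 4 arrays. HP, CYBRD1 and TRPM3 were highest and AREG, S100A2, HSD3B2, HSD11B1 and CCNB1 lowest on hCG day 18, whereas the CSF1R mean was 298 to 358 in the other groups and 731 on day 18.

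Against hCG day 10 the 6 largest increases were those of HP, TENM2, DPYSL3, MS4A8, CYBRD1 and XKRX. None of these 6 was called different from hCG day 15, where the log2 difference was 0.62 for CYBRD1 (adjusted p = 0.72), 0.78 for DPYSL3 (adjusted p = 0.73), 1.74 for TENM2 (adjusted p = 0.71), 1.01 for MS4A8 (adjusted p = 0.54) and 1.03 for XKRX (adjusted p = 0.48). TENM2 did not pass against hCG day 12 either (2.62, adjusted p = 0.13). INSM1, a zinc finger factor of neuroendocrine cells, and TMPRSS7, a membrane serine protease, were also lower on day 18 than on hCG day 10. Their day 18 means of 13.3 and 7.76 lay under the added constant, so the size of these decreases is not resolved. INSM1 averaged 196 in untreated tissue, 793 on hCG day 10, 103 on hCG day 12, 32.0 on hCG day 15 and 13.3 on hCG day 18, and against untreated tissue it did not pass (adjusted p = 0.069). NEDD1 differed from untreated tissue by -2.37 on hCG day 10, -2.36 on hCG day 12, -2.48 on hCG day 15 and -2.52 on hCG day 18, comparisons that share the untreated arrays, and its day 18 level was not called different from hCG day 10 (-0.15, adjusted p = 0.87).

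The lists differed in their course. The median change of the cholesterol genes against untreated tissue was 0.97, 0.92, 1.00 and 1.35 on hCG days 10, 12, 15 and 18. That of the cell cycle genes was -0.20, -0.18, -0.72 and -0.85 on the same days. All these comparisons share the untreated arrays. Of the 16 cholesterol genes 4 were higher on day 18 than on hCG day 10 and 0 than on hCG day 12, with median differences of 0.22 and 0.23 in limma's fit. Of the 27 cell cycle genes 14 were lower on day 18 than on hCG day 10 and 11 lower than on hCG day 12, where 5.09% and 1.57% of all genes were lower, and 7.97% and 2.39% passed either way. The log2 difference of CCNB1 from hCG day 10 was -1.67 ± 0.20 (adjusted p = 5.4e-05). Of the 16 macrophage markers 8 were higher than on hCG day 10 and 5 higher than on hCG day 12, where 2.87% and 0.821% of all genes were higher. Their median change against untreated tissue was -0.17 on hCG day 10, -0.21 on hCG day 12, 0.07 on hCG day 15 and 0.79 on hCG day 18, comparisons that share the untreated arrays. None of these 3 lists held a gene called different between hCG days 18 and 15, where the limma test called 0 of 14132 genes.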

How the data were processed

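Each array's deposited column holds linear intensities, 1 for every probe set. The authors used GCOS, Affymetrix's scanner software, per the submitters' processing notes; its version is not given in the sources used here. In the table every array has nearly the same 2% trimmed mean, so the deposited intensities were scaled per array. No detection calls were used, and the number of arrays limits the precision. After 158 control probe sets were left out, 52707 remained: 24956 with 1 gene symbol in the platform annotation, 361 with several and 27390 with none. One mean per group was fitted to log2(signal + 16) of all 20 arrays with limma 3.58.1 (R 4.3.3, lmFit, contrasts, eBayes). The test's threshold was a Benjamini-Hochberg adjusted p under 0.05 over all probe sets of a comparison. The procedure was tested on simulated data. Array quality was compared by exact permutation tests (scipy 1.17.1).

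The text names the 15 genes higher and 15 lower with the largest change among probe sets that passed, did not overlap and had a mean signal of at least 100 in the brighter group. It names likewise up to 6 each way against the other hCG days, and up to 5 passing members of each list. Lists with no passing member are given mostly as counts. IDI1, INSIG1, SREBF2, FDPS, TOP2A, MKI67, TYMS, PCNA, CCND3, CDKN1A, FDX1, INHA, RLN2, MARCO and the markers given as under 16, outside that rule, were chosen after their values were seen. In a list, a gene is represented by its probe set with the highest mean log2 value. The members of the comparison and all lists were chosen with earlier results of these data known. As alternatives, arrays were centred on their medians or quantile-normalised, probe sets were limited to the brighter 50%, and the 8 arrays of the compared groups were fitted alone. A replicate block, array weights or a variance trend was added to the model. The added constant was set to 1 or 64, probe sets were averaged per gene, calls needed a 2-fold change, and each array was left out in turn. Leaving out the 3 arrays that lay apart was added after seeing the data.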

Additional observations from a re-analysis of the deposited data

Results flagged for a closer look

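Single arrays far from the other 3 of their group were looked for in genes named against untreated tissue. Genes named only against other hCG days are not covered, such as SLC44A3 with 867, 865, 808 and 1518 on hCG day 18. For 1 gene, chance alone gives such an array in about 1 of 20 groups. Because many genes were searched, chance alone gives several such arrays. On hCG day 18, replicate 1 stood apart for KANK4 (signal 320) and BCL2L11 (836), replicate 2 for PI16 (160), replicate 3 for NR5A2 (1004), BTC (162) and CCNB2 (93.2), and replicate 4 for TFRC (2004). In untreated tissue, replicate 1 stood apart for PENK (3321), replicate 2 for NANOS1 (911), replicate 3 for PMAIP1 (229) and replicate 4 for CYP19A1 (3806).

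Differences between the hCG days, which differ in days of hCG, luteal day and dose together, were tested directly. From hCG day 10, 2744 probe sets differed on hCG day 18, and from hCG day 12, 753. The largest log2 differences from hCG day 10 were 5.09 for HP, 3.68 for TENM2, 3.38 for DPYSL3, 3.10 for MS4A8, 3.02 for CYBRD1 and 2.87 for XKRX upward, and fitted differences of -4.18 for INSM1, -4.10 for TMPRSS7, -3.88 for CYP3A4, -3.73 for DAPL1, -3.63 for AREG and -3.57 for ANKRD22 downward. INSM1 and TMPRSS7 had day 18 means under 16, so their values depend on the added constant and have no exact size or rank. From hCG day 12 they were 4.52 for HP, 2.36 for SLC44A3, 2.31 for OMD, 2.23 for XKRX, 2.16 for PTAFR and 2.15 for MS4A8 upward, and -2.53 for CYP3A4, -2.33 for LRRC15, -2.27 for AREG, -2.17 for PTHLH, -2.16 for DHRS13 and -2.12 for TNNI3 downward.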

How the results depend on the processing

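Of 103 calls of named genes 0 changed direction, and 60 held in all alternatives but the 2-fold minimum. That minimum was not applied to these calls, and the brighter 50% of probe sets held 100 of the 103. Without at least 1 single array 34 were lost. Under another alternative 38 were lost, 21 of these without the 3 arrays that lay apart. The 2054 probe sets against untreated tissue became 1681 with median-centring, 2090 with quantile normalisation, 2342 in the brighter 50% of probe sets, 2731 with array weights, 2272 with an added constant of 64 and 1421 with 1, 1375 to 1606 without a single array, 845 with a 2-fold minimum and 1037 of 14132 genes with means over probe sets. The balance of 987 higher and 1067 lower turned to 925 and 756 with median-centring and to 1069 and 1021 with quantile normalisation. The 2744 against hCG day 10 became 1834 to 2345 without a single array, 973 with a 2-fold minimum and 1303 genes with means over probe sets. The 753 against hCG day 12 became 206 with 8 arrays alone, 424 with an added constant of 1, 335 to 673 without a single array, 314 with a 2-fold minimum and 384 genes with means over probe sets. Against hCG day 15 the count was 0 in the alternatives except 1 without hCG day 18 replicate 1, so the range without a single array is 0 to 1. Without the 3 arrays that lay apart, the counts were 2894 against hCG day 10 and 674 against hCG day 12. The cause of these shifts was not tested, beyond the fewer arrays or features that the alternatives hold by construction.

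Replicate numbers are shared between the groups, but their deviations correlated at 0.268, 0.0332, -0.00728 and -0.0699 in same-numbered pairs, and not every array correlated best with its own number, so the numbers were not taken to pair the samples. With a replicate block the counts were 2002, 2773, 798 and 0 against untreated tissue and hCG days 10, 12 and 15. Signals under about 16 carry no usable order, which limits the dim genes.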

Other observations

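Probe sets without a gene name took a share of the differences that the text above leaves out: of the 2054 that passed against untreated tissue, 690 have no symbol or several.

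Against hCG day 12, PTAFR, the receptor of platelet-activating factor, averaged 170 on hCG day 18, with means of 55.3 in untreated tissue, 50.1 on hCG day 10, 27.0 on hCG day 12 and 49.8 on hCG day 15. PTHLH, which encodes parathyroid hormone-related protein, averaged 82.5 on hCG day 18, with 252 in untreated tissue, 290 on hCG day 10, 486 on hCG day 12 and 291 on hCG day 15. Against untreated tissue PTHLH did not pass (-1.33, limma, adjusted p = 0.064). PTAFR passed (1.59, adjusted p = 0.034) with arrays that overlapped, at 99.7 to 247 on hCG day 18 and 13 to 136 in untreated tissue. Its call was kept in 2 of the 8 fits that left out 1 array (adjusted p up to 0.13) and ended with 8 arrays fitted, a replicate block, an added constant of 1 or without the 3 arrays that lay apart. TNNI3, the inhibitory troponin of heart muscle, averaged 123 on hCG day 18, with 546 in untreated tissue, 593 on hCG day 10, 550 on hCG day 12 and 311 on hCG day 15. DAPL1, a protein related to death-associated protein, averaged 35.1 on hCG day 18, with 219 in untreated tissue, 742 on hCG day 10, 164 on hCG day 12 and 68.5 on hCG day 15. SLC44A3, a choline transporter-like protein, averaged 1014 on hCG day 18, with 241 in untreated tissue, 220 on hCG day 10, 212 on hCG day 12 and 592 on hCG day 15.

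S100A8, a calcium-binding protein of neutrophils and activated monocytes, gave 492, 1595, 77.8 and 144 on hCG day 18, against 140, 21.2, 26.4 and 55 in untreated tissue. The treated arrays spread over a wide range and overlapped the untreated ones, and the difference did not pass (2.36 ± 0.74, limma, adjusted p = 0.09).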
